A study of Mus musculus with 12 samples.

Results

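Cystatins are inhibitors of papain-like cysteine proteases, and 8 of their genes known from the testis, epididymis or most tissues were described here across 12 testis libraries: Cst9, Cst12, Cst8, Cst11, Cst13, Cst3, Cst6 and Cstb. The set was built around Cst9, which had been picked because its level was low in the control_5NC libraries; the other 7 were added as relatives of it. Cst9 was thus selected on its measured counts in these libraries. All 8 symbols were found, each in 1 of the 20788 gene entries of the deposited table. Comparisons that involve control_5NC are therefore given for these genes as values with standard errors and no p, and a count of calls there is printed only beside its background, with nothing read from it. Tests were kept for the comparisons without control_5NC. Since Cst9 was picked as low against the other groups, the likeness of those groups in Cst9 can follow in part from the choice.

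Testes of F1 mice, labelled as strain IRC mouse, were transfected with virus, and 3 libraries of total RNA were sequenced per group. The groups were overexpression (labelled 8276OV; virus for overexpression of the long non-coding RNA lncRNA8276), knockdown (8276KD; virus for its inhibition), control_5NC (5NC) and control_3NC (3NC). The labels give only the control names, and control_5NC was set against overexpression and control_3NC against knockdown because the series text lists them in that order. No age, dose, promoter, virus type or time after transfection is given in the sources used here, and nothing states that libraries of a group came from separate animals, so p-values measure only the spread between these libraries, which may be technical. LncRNA8276 itself was not analysed here.

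Secreted cystatins and the cytosolic stefins bind the active site of lysosomal cathepsins and related proteases and hold them inactive. In mice a tandem array of cystatin genes includes the CRES (cystatin-related epididymal spermatogenic) subgroup, whose members are expressed mainly in the male tract and lack residues that the classical inhibitors use to bind proteases. Cst9 encodes testatin, first known from the pre-Sertoli cells of the fetal mouse testis at the time of sex determination. Cst8 encodes CRES, a protein of the proximal epididymis and the sperm acrosome, and Cst11 (CRES2), Cst12 (CRES3) and Cst13 (Cymg1) are close relatives of it. Cst3 encodes cystatin C, a secreted inhibitor made by most cells, Cst6 encodes cystatin E/M, an inhibitor of legumain and cathepsin L known from skin, and Cstb encodes stefin B, an inhibitor inside the cell.

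On the mouse build GRCm38, 6 of the 8 genes lay within 107.084 kb of chromosome 2, in the order Cst11, Cst12, Cst8, Cst13, Cst9 and Cst3. Cst9 was annotated at chr2:148835147-148838738 on the plus strand, 4.736 kb beyond the end of Cst13 (chr2:148820081-148830410, plus strand) and 32.983 kb from the end of Cst3 (chr2:148871722-148875692, minus strand). Cst8 (chr2:148798785-148805595) and Cst12 (chr2:148789361-148793546) were on the plus strand and 5.238 kb apart, and Cst11 (chr2:148768609-148771497) was on the minus strand. Cst6 (chr19:5344705-5349574, minus strand) and Cstb (chr10:78425669-78427622, plus strand) lay elsewhere. All 8 are protein-coding genes, and each had whole-number counts in all 12 libraries, so no counts were visibly shared with a near-identical gene.

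RefSeq promoter sequences (table of build GRCm38.p6) were at hand for 5 of the 8 genes, Cst9, Cst12, Cst8, Cst13 and Cst3. The 250 bases before the RefSeq start are printed for Cst9, the gene that was low in control_5NC, and for Cst12, a neighbour of the array whose level in control_5NC was within the range of the other groups. For Cst12, Cst8, Cst13 and Cst3 the RefSeq start differs from the annotated start above, and the 250 bases reach into the annotated gene. The Cst9 window is chr2:148834897-148835146 and the Cst12 window chr2:148789115-148789364, both on the plus strand and 5′ to 3′, and capitals would mark a match to a searched motif.
Cst9: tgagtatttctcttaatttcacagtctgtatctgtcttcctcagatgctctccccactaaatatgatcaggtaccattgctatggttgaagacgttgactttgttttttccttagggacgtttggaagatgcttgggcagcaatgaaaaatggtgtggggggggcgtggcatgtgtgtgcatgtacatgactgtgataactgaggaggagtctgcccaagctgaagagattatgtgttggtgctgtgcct
Cst12: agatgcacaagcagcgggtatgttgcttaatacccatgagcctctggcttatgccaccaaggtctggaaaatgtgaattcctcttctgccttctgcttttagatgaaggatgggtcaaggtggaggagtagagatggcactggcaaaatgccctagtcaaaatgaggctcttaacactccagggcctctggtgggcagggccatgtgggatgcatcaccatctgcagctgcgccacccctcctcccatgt
The motifs searched on both strands were TATAAA for the TBP box, CCAAT for the NF-Y box, AACAAT for the core of the SOX site, TGACG for the core of the cAMP response element, GTTGCC for the core of the RFX site and AGATAA for the site of GATA factors. None of the 6 was found in the windows of Cst9, Cst12 or Cst3, which is why no base above is a capital. The Cst8 window held GTTGCC on the plus strand with its first base at position -61 from the start, and the Cst13 window held TATAAA on the minus strand at -208. Among 32851 promoters of the same length, 12.4% held TATAAA, 33.8% CCAAT, 9.42% AACAAT, 17.8% TGACG, 10.4% GTTGCC and 9.99% AGATAA. The GC content was 45.6% for Cst9, 52.8% for Cst12, 49.6% for Cst8, 44.8% for Cst13 and 59.6% for Cst3, against a median of 52.4% over all promoters. These matches are descriptions of letters and were not tested for function.

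Libraries held 13485479 to 15771655 counts, and 16395 genes passed the filter on low counts, among them 6 of the 8 cystatins (not Cst11 and Cst6). Levels are normalised CPM, counts scaled to a common library size with TMM factors, which correct for differences in library make-up. Control_3NC 2 stood apart: its median r with other libraries was 0.948, and the 11 remaining libraries had medians of 0.974 to 0.984. The testis label fitted the markers: 15 of 15 spermatid genes passed the filter, with summed levels between 14410 and 20584 CPM in the 12 libraries, as did 22 of 22 Sertoli cell genes.

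Cst9 was at 49.1, 45.5 and 45.8 CPM in the overexpression libraries and at 41.1, 22.9 and 73.7 CPM in the knockdown libraries. It was at 8.04, 11.8 and 10.4 CPM in the control_5NC libraries and at 40.9, 39.7 and 66.1 CPM in the control_3NC libraries. The 3 control_5NC libraries lay below all others, which is the pattern for which the gene had been picked. Their highest value was 11.8 CPM, and the lowest among the other 9 libraries was 22.9 CPM, a gap of 1.94-fold. The other 9 libraries averaged 47.2 ± 15 CPM (SD, n = 9) and control_5NC averaged 10.1 ± 1.89 CPM (SD, n = 3), a ratio of 4.69. Counting alone limits these values little, since control_5NC held 439 Cst9 counts in all and each other group at least 2056.

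**Figure D1:**
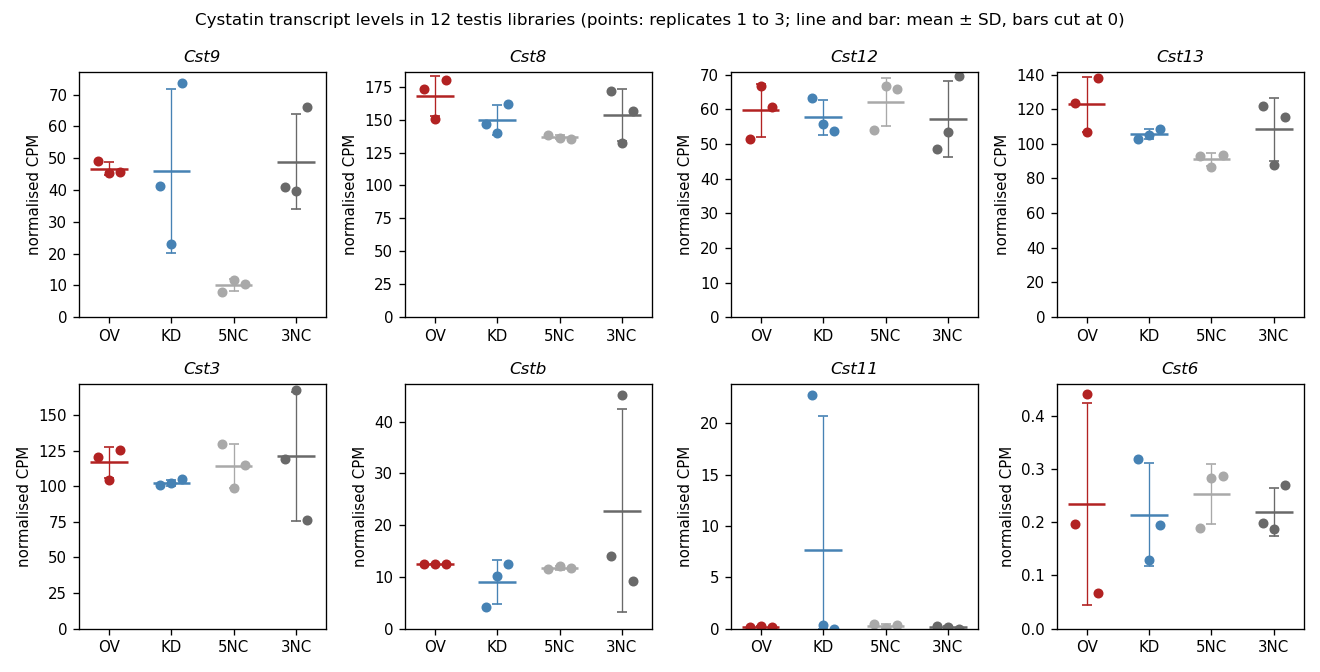
Normalised CPM of the 8 cystatins in each library (y axes, CPM, each from 0), by group: overexpression (OV), knockdown (KD), control_5NC (5NC) and control_3NC (3NC). Points are replicates 1 to 3, horizontal lines are means and bars are SD, drawn down to 0 at the lowest; Cst9 lies at 8.04 to 11.8 CPM in control_5NC and at 22.9 to 73.7 CPM elsewhere, Cst11 has 1 high library (knockdown 1) and Cstb 1 high library (control_3NC 2).

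Outside control_5NC, the Cst9 levels of the 3 groups overlapped. The 3 knockdown libraries alone spanned 22.9 to 73.7 CPM, the whole range of the 9 libraries, a spread of 3.22-fold. The coefficient of variation of Cst9 over those 9 libraries was 31.7%, higher than that of 83.8% of tested genes. The same measure was 10.3% for Cst8, 12.5% for Cst12, 13.0% for Cst13, 21.9% for Cst3 and 80.1% for Cstb. Among the 3 overexpression libraries Cst9 was within 45.5 to 49.1 CPM.

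Cst9 is known from Sertoli cells, the somatic cells that nurse the germ cells, so its level was set beside a list of 22 Sertoli cell genes. Their summed level was 1230 to 1340 CPM in overexpression, 1294 to 1442 CPM in knockdown, 1172 to 1305 CPM in control_5NC and 1175 to 1408 CPM in control_3NC, ranges that overlap. Per 1000 CPM of these genes, Cst9 stood at 34.1 to 37.0 CPM in overexpression, 17.7 to 55.4 CPM in knockdown, 6.16 to 9.58 CPM in control_5NC and 28.2 to 56.3 CPM in control_3NC. The control_5NC libraries lay below all others on this scale, which follows from the choice of Cst9 and the narrow range of the sums. It is no further support. Clu alone made 677 of the 1337 CPM of the sum in overexpression 1. None of the 22 passed edgeR's quasi-likelihood test (Benjamini-Hochberg adjusted p below 0.05) in any of the 5 comparisons made here, and 0 passed by DESeq2 or limma-voom. In edgeR 0 to 3 of the 22 had an unadjusted p below 0.05. The number was 3 in knockdown against control_3NC, beside 8.69% of all tested genes, and in control_5NC against control_3NC, beside 12.9%. The median log2 fold change of the 22 was -0.03 in overexpression against control_5NC and 0.04 in control_5NC against control_3NC. In whole testis RNA, fewer cells of a type and less RNA per cell cannot be told apart.

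Cst8, the founding CRES gene, was at 173.6, 150.7 and 179.7 CPM in overexpression, 146.3, 140.0 and 162.1 CPM in knockdown, 138.3, 136.0 and 135.2 CPM in control_5NC, and 172.0, 132.4 and 156.5 CPM in control_3NC. The overexpression libraries lay above the control_5NC libraries, and all other pairs of groups set against each other overlapped. Cst13, the direct neighbour of Cst9, was at 123.8, 106.6 and 138.1 CPM in overexpression, 102.9, 105.3 and 108.4 CPM in knockdown, 92.9, 86.8 and 93.3 CPM in control_5NC, and 121.9, 87.7 and 115.3 CPM in control_3NC. For Cst13 too the overexpression libraries lay above control_5NC without overlap. In that comparison 22.0% of tested genes did not overlap, in either direction. The spread of Cst13 within control_5NC was small, with a mean of 91.0 ± 3.63 CPM, beside 123 ± 15.8 CPM in overexpression (SD, n = 3 each).

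Cst12, the CRES3 gene, was at 51.6, 66.9 and 60.7 CPM in overexpression, 63.4, 55.9 and 53.9 CPM in knockdown, 54.1, 66.6 and 65.8 CPM in control_5NC, and 48.5, 53.4 and 69.5 CPM in control_3NC. Its groups overlapped in every comparison, and control_5NC had the highest of the 4 means, 62.2 ± 7.0 CPM (SD, n = 3).

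Because CRES proteins are known from spermatids, Cst8 and Cst13 were also set beside 15 spermatid genes, whose summed level was 15498 to 20584 CPM in overexpression and 15179 to 18233 CPM in control_5NC. Per 1000 CPM of those genes, Cst13 was at 6.45 to 6.88 CPM in overexpression and 5.10 to 5.75 CPM in control_5NC, without overlap. Cst8 on that scale was at 8.73 to 9.72 CPM in overexpression and 7.59 to 8.96 CPM in control_5NC, which overlapped. That sum is 85.9% Prm2, Tnp2, Prm1, Akap4 and Tnp1. Taken against each of the 15 genes singly, the ratio of Cst13 was higher in overexpression than in control_5NC without overlap for 3 (Prm1, Prm2 and Tnp1) and overlapped for the other 12. Its ratio to Acrv1, an acrosomal protein, was 0.600 to 0.658 in overexpression and 0.644 to 0.682 in control_5NC. The ratio of Cst8 was higher in overexpression for 2 of the 15, lower for 5 and overlapped for 8. The median log2 fold change of the 15 genes in overexpression against control_5NC was 0.36, beside -0.01 over all genes. Of the 15, 7 had an unadjusted p below 0.05 in edgeR, beside 15.3% of all tested genes, and 0 passed its threshold. DESeq2 called 6, beside 4.53% of all tested genes, and limma-voom 0. Their part in the values of Cst8 and Cst13 was not tested beyond these ratios.

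Cst11, the CRES2 gene of the epididymis, was close to absent from all libraries but 1. It had 2, 3 and 2 counts in overexpression, 356, 5 and 0 counts in knockdown, 7, 1 and 5 counts in control_5NC, and 3, 2 and 0 counts in control_3NC. Knockdown 1 held it at 22.7 CPM, and the highest of the other 11 libraries was control_5NC 1 at 0.440 CPM. The counts of 0 in knockdown 3 and control_3NC 3 allow up to 0.194 and 0.203 CPM (3 counts), a limit that covers counting error only. Leaving out knockdown 1, the knockdown group held 5 counts in 2 libraries and control_3NC held 5 counts in 3, so the group difference rested on 1 library and was not tested.

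Genes of the epididymis, the duct that receives sperm from the testis, were high in the same library. Of 24 listed epididymis genes, 20 had their highest level in knockdown 1, and 11 were there at over 10 times the next library. Gpx5, the secreted glutathione peroxidase of the epididymis, was at 415.6 CPM in knockdown 1 and at 10.1 CPM in the next library, knockdown 2. Elsewhere Gpx5 was at most 0.324 CPM, so knockdown 2 stood above the rest for it too. Lcn8, an epididymal lipocalin, was at 40.7 CPM in knockdown 1 and had no count in the other 11 libraries. The summed level of the list was 85.0 to 170.3 CPM in overexpression, 1217, 132 and 78.4 CPM in the knockdown libraries in falling order, 129 to 552 CPM in control_5NC and 140 to 244 CPM in control_3NC.

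Cst11 did not follow every epididymis gene. Crisp1, a sperm-coating protein, was at 165.5 CPM in knockdown 1 but at 240.0 CPM in control_5NC 2 and 98.9 CPM in control_5NC 3, where Cst11 had 1 and 5 counts. 9230104L09Rik, a cystatin superfamily gene starting 11.6 kb from the start of Cst9, followed Cst11 in part, with 48.8 CPM in knockdown 1 and 16.4 CPM in the next library, control_5NC 1. Smooth muscle genes of the peritubular myoid list were also high in knockdown 1, which had the highest level of 5 of the 6. Cnn1, a calponin of smooth muscle, was at 12.9 CPM there and 4.63 CPM in the next library, and Myh11, the smooth muscle myosin heavy chain, at 65.3 CPM there and 34.9 CPM in the next. The part of epididymal tissue or of smooth muscle in the level of Cst11 was not tested.

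**Figure D2:**
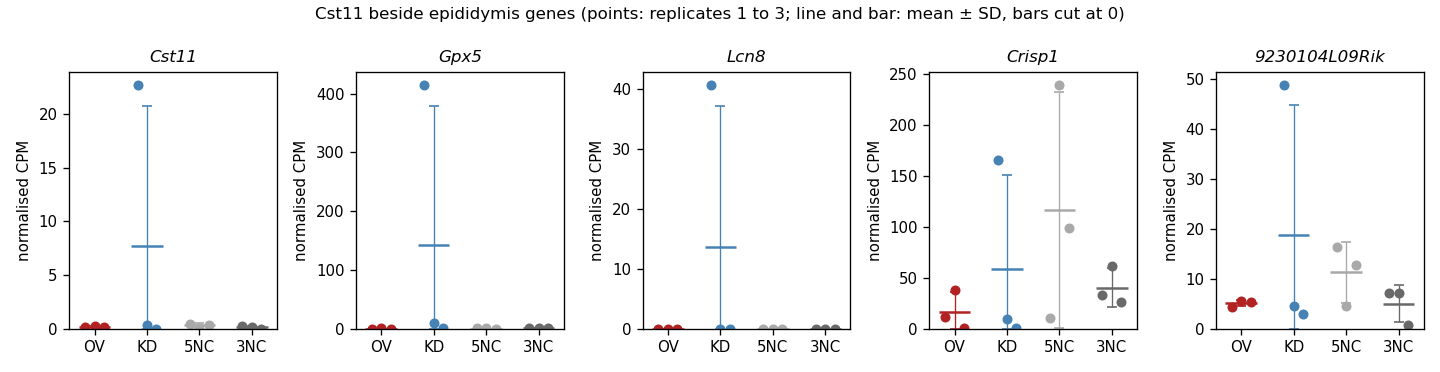
Normalised CPM (y axes, from 0) of Cst11, 3 epididymis genes and the cystatin superfamily gene 9230104L09Rik by library, for overexpression (OV), knockdown (KD), control_5NC (5NC) and control_3NC (3NC). Points are replicates 1 to 3, lines are means and bars are SD, drawn down to 0 at the lowest. Cst11, Gpx5 and Lcn8 are highest in knockdown 1 (22.7, 415.6 and 40.7 CPM), with Gpx5 at 10.1 CPM in knockdown 2. Crisp1 is highest in control_5NC 2 (240.0 CPM).

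Cst3, the cystatin C gene, was at 120.7, 104.5 and 125.5 CPM in overexpression, 100.9, 102.1 and 104.9 CPM in knockdown, 130.0, 98.6 and 114.7 CPM in control_5NC, and 119.2, 167.5 and 76.4 CPM in control_3NC. The groups overlapped in every comparison, and control_3NC held both the highest and the lowest library. Cst6, which inhibits legumain, had 1 to 6 counts in every library, at most 0.441 CPM, so that differences between groups were not detectable at this depth.

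Cstb, the stefin B gene, was at 12.5, 12.5 and 12.4 CPM in overexpression, 4.21, 10.2 and 12.5 CPM in knockdown, 11.4, 12.1 and 11.7 CPM in control_5NC, and 13.9, 45.2 and 9.13 CPM in control_3NC. The overexpression libraries lay just above those of control_5NC, a comparison in which 22.0% of tested genes did not overlap. The high value belonged to control_3NC 2, the library that stood apart, and the low value to knockdown 1. Without control_3NC 2 the other 11 libraries ranged between 4.21 and 13.9 CPM.

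Cstb and Cst3 are expressed by macrophages as well as many other cells. The summed level of 14 macrophage and leukocyte genes was 903 CPM in control_3NC 2 and 126 to 172 CPM in the other 11 libraries, so both Cstb (45.2 CPM) and Cst3 (167.5 CPM) had their highest level in the library richest in leukocyte transcripts. The summed level of 9 Leydig cell genes was 998 CPM in knockdown 1 and 1110 CPM in control_3NC 3, against 1498 to 2281 CPM in the other 10 libraries. Those 2 libraries held the lowest Cstb levels, 4.21 and 9.13 CPM. The part of either cell type in the levels of Cstb and Cst3 was not tested.

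Genes for the proteases that cystatins inhibit were high in the same library, control_3NC 2. Of 11 genes for cysteine cathepsins and legumain, 9 had their highest level in control_3NC 2, and 7 were there at over 2 times the next library. Their summed level was 453 to 490.3 CPM in overexpression, 398 to 475 CPM in knockdown, 432 to 500 CPM in control_5NC, and 453, 459 and 1576 CPM in control_3NC. The 3 most abundant were Ctsl (cathepsin L, mean of 12 libraries 259.8 CPM), Ctsb (cathepsin B, 118.9 CPM) and Lgmn (legumain, 50.2 CPM). Ctsl was at 447.2 CPM, Ctsb at 418.9 CPM and Lgmn at 138.5 CPM in control_3NC 2. Of the 10 that passed the filter, 0 passed in any comparison by edgeR, DESeq2 or limma-voom. In knockdown against control_3NC 5 had an unadjusted p below 0.05 in edgeR, beside 8.69% of all tested genes. Their median log2 fold change was -1.02 in knockdown against control_3NC, beside -0.03 over all genes, and 0.01 without control_3NC 2, so the median rested on that library.

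**Figure D3:**
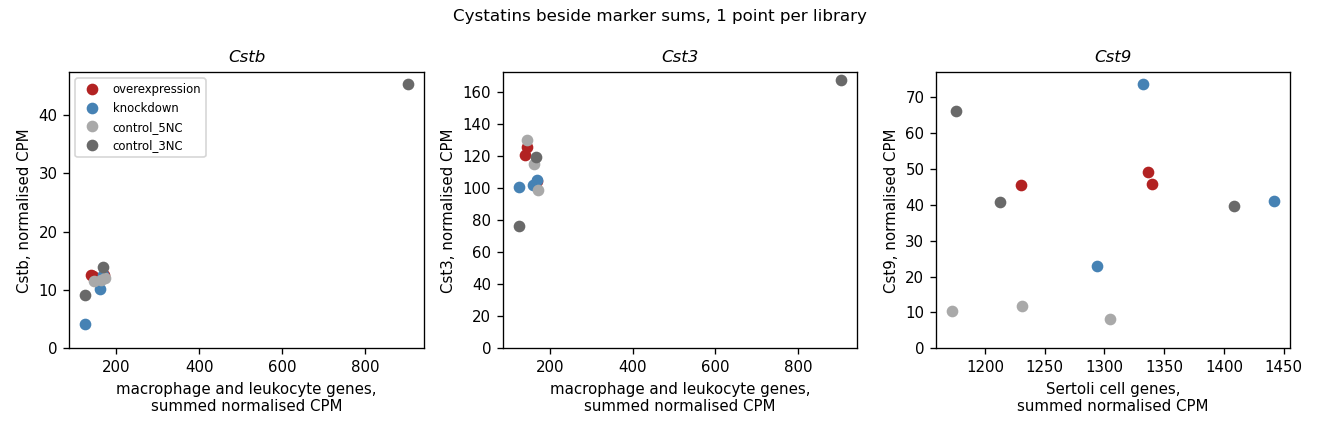
Level of Cstb, Cst3 and Cst9 (y axes, normalised CPM, from 0) against the summed normalised CPM of macrophage and leukocyte genes or of Sertoli cell genes (x axes), 1 point per library, coloured by group. Control_3NC 2, at 903 CPM of leukocyte genes, has the highest Cstb (45.2 CPM) and Cst3 (167.5 CPM), and the control_5NC libraries have the lowest Cst9 (8.04 to 11.8 CPM) at Sertoli sums of 1172 to 1305 CPM.

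Knockdown was set against control_3NC to ask whether these genes differed when virus against lncRNA8276 was given. Of the 6 cystatins tested, 0 passed edgeR's quasi-likelihood test (Benjamini-Hochberg adjusted p below 0.05), and DESeq2 and limma-voom called 0 each, beside 0.0183% of all tested genes by edgeR. The libraries of the 2 groups were free of overlap for 0 of the 6, beside 13.0% of tested genes. The log2 fold change of Cst9 was -0.09 ± 0.35 (SE; 95% confidence interval -0.88 to 0.69; edgeR adjusted p = 0.936), which leaves room for changes in both directions. It was 0.01 ± 0.14 for Cst12, -0.04 ± 0.10 for Cst8, -0.04 ± 0.12 for Cst13 and -0.24 ± 0.22 for Cst3, with edgeR adjusted p between 0.689 and 0.974. The median over the 6 was -0.07, beside -0.03 over all genes.

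Cstb was the 1 cystatin with an unadjusted p below 0.05 in that comparison. Its log2 fold change was -1.35 ± 0.55 (SE; 95% confidence interval -2.57 to -0.12), with an unadjusted p of 0.0339 and an adjusted p of 0.559 in edgeR, so it failed the correction. Only 1 of the 3 knockdown libraries was below the lowest control_3NC library. Without control_3NC 2 the log2 fold change was -0.36 (edgeR adjusted p = 0.851), and leaving out any 1 library gave -1.72 to -0.36, with edgeR adjusted p between 0.194 and 0.851.

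Overexpression against knockdown compared the 2 constructs directly. None of the 6 cystatins passed edgeR's test or had an unadjusted p below 0.05 in it, and DESeq2 and limma-voom called none, beside 0.0% of all tested genes by edgeR (343 of 16395 had an unadjusted p below 0.05, and DESeq2 called 12). The groups did not separate for any of the 6, beside 10.6% of tested genes. The log2 fold changes were 0.03 ± 0.35 for Cst9 (95% confidence interval -0.76 to 0.81), 0.05 ± 0.14 for Cst12, 0.17 ± 0.10 for Cst8, 0.22 ± 0.12 for Cst13, 0.19 ± 0.22 for Cst3 and 0.47 ± 0.55 for Cstb (SE), each with an edgeR adjusted p of 1.0. All 6 were above 0, with a median of 0.18 beside 0.01 over all genes. These 2 comparisons share the knockdown libraries.

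A joint test over overexpression, knockdown and control_3NC asked whether a gene differed in any way among the groups other than control_5NC. It called 0 of the 6 cystatins in edgeR (0 at an unadjusted p below 0.05), and DESeq2 and limma-voom called 0 each, beside 0.0244% of all tested genes by edgeR. The edgeR adjusted p was 0.992 for Cst9 and between 0.816 and 0.978 for the other 5. For Cst9 this result can be set in part by its choice as low against these groups, so it is no independent test.

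**Figure D4:**
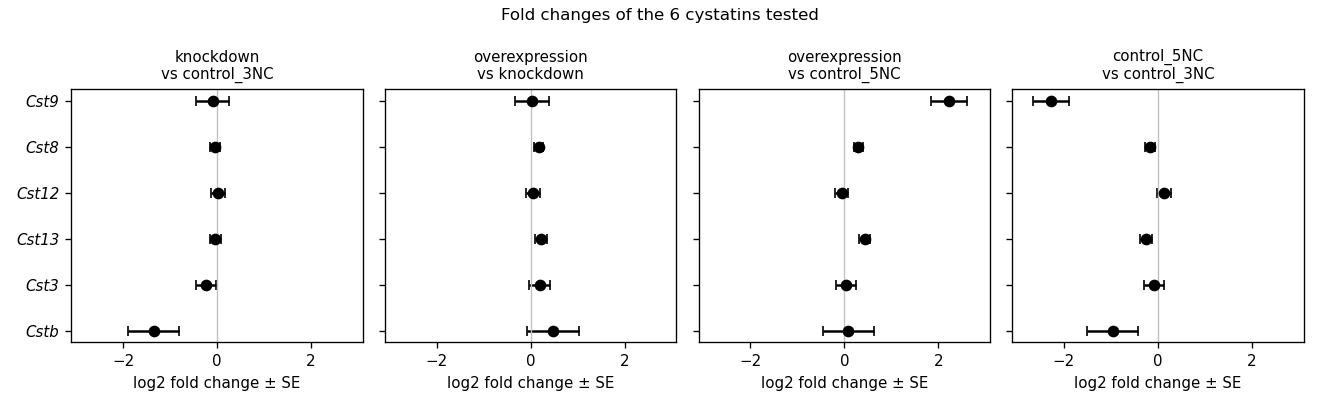
Log2 fold change (x axes) of the 6 cystatins tested in each of 4 comparisons, with points at the edgeR estimate and bars of 1 standard error. Cst9 lies at -0.09 and 0.03 in the comparisons without control_5NC and at 2.22 and -2.28 in those with it, and Cstb has the widest bars (0.54 to 0.55).

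In the comparisons with control_5NC, which were used in choosing Cst9, the values are descriptions. In overexpression against control_5NC the log2 fold change was 2.22 ± 0.38 for Cst9, 0.43 ± 0.12 for Cst13, 0.30 ± 0.10 for Cst8, 0.09 ± 0.54 for Cstb, 0.03 ± 0.22 for Cst3 and -0.06 ± 0.14 for Cst12 (SE). The count past the edgeR threshold was 1 of the 6, beside 0.476% of all tested genes, and is no test here because Cst9 was picked on these libraries. The libraries did not overlap for 4 (Cst9, Cst8, Cst13 and Cstb), beside 22.0% of tested genes. In control_5NC against control_3NC it was -2.28 ± 0.38 for Cst9, -0.25 ± 0.12 for Cst13, -0.17 ± 0.10 for Cst8, -0.08 ± 0.22 for Cst3, 0.12 ± 0.14 for Cst12 and -0.96 ± 0.54 for Cstb (SE). The count past the edgeR threshold was 0 of the 6, beside 0.244% of all tested genes, and is likewise no test. The libraries did not overlap for 1 (Cst9), beside 13.2% of tested genes. The 2 comparisons share the control_5NC libraries, and without control_3NC 2 the value of Cstb in the second was 0.02.

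Within 1 Mb of the start of Cst9 lay 16 other genes, 12 of them tested, of which 4 are cystatins described above. In each of the 5 comparisons edgeR called 0 of the 12, with 0 to 2 at an unadjusted p below 0.05. The 2 were in overexpression against control_5NC, where 15.3% of all tested genes had such a p. Limma-voom called 0 of the 12. DESeq2 called 1 of the 12, Cst13, in overexpression against control_5NC, beside 4.53% of all tested genes, and 0 in the other comparisons. Nothing is read from that call, since Cst13 is a listed cystatin and the comparison includes control_5NC. In overexpression against control_5NC the 12 ranged in log2 fold change between -1.13 and 0.43 with a median of -0.04, and in control_5NC against control_3NC between -0.65 and 1.17 with a median of -0.01. Cst9 stood at 2.22 and -2.28 in these comparisons, the ones on which it was picked. The 3 neighbours with the smallest p in the joint test were 8030411F24Rik (a cystatin superfamily gene, unadjusted p = 0.061 in edgeR), 9230104L09Rik (0.165) and Cst13 (0.194).

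**Figure D5:**
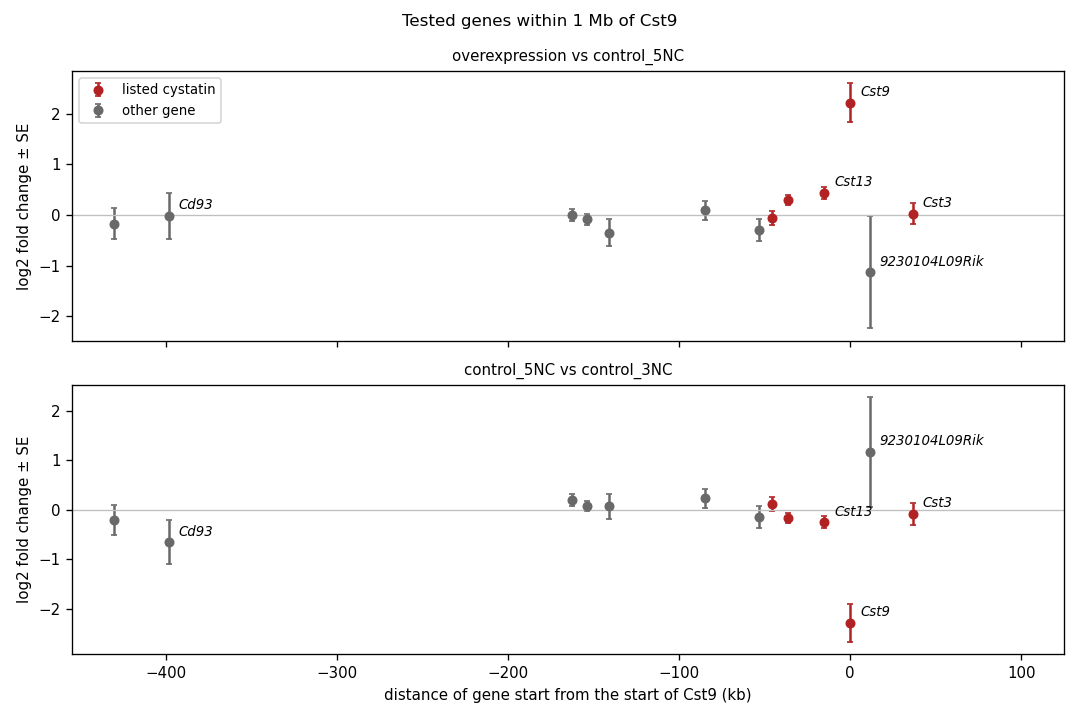
Log2 fold change with bars of 1 standard error (y axes) of the 13 tested genes within 1 Mb of Cst9, Cst9 included, against the distance of the gene start from that of Cst9 in kb (x axis); red points are listed cystatins and grey points other genes. Cst9 lies at 2.22 in overexpression against control_5NC and at -2.28 in control_5NC against control_3NC, and the 12 others lie between -1.13 and 0.43 and between -0.65 and 1.17.

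The genes whose pattern was most like that of Cst9 were found by Pearson's correlation of log2 CPM over the 12 libraries, among 15371 tested genes with a mean of at least 1 CPM. They were Gpat3 (r = 0.954), Ceacam2 (0.931), Gm40011 (0.926), Atpaf1 (0.920), Mmadhc (0.919), A530064D06Rik (0.909), Dyrk2 (0.908) and Zfp33b (0.906). All 8 had every control_5NC library below every other library, so the step between control_5NC and the rest enters each of these correlations. The step differed in size. Gpat3, an acyltransferase of triglyceride synthesis, was at 38.0 ± 1.24 CPM in overexpression, 37.7 ± 2.39 CPM in knockdown, 31.7 ± 0.678 CPM in control_5NC and 38.5 ± 2.75 CPM in control_3NC (SD, n = 3 each). Gm40011, a gene without a GENCODE position here, was at 10.4 ± 1.56 CPM in overexpression, 9.12 ± 1.17 CPM in knockdown, 0.187 ± 0.113 CPM in control_5NC and 10.2 ± 0.867 CPM in control_3NC (SD, n = 3 each).

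A530064D06Rik, on chromosome 17, was at 5.91 ± 1.37 CPM in overexpression, 5.70 ± 0.969 CPM in knockdown, 0.0654 ± 0.0630 CPM in control_5NC and 5.23 ± 0.725 CPM in control_3NC (SD, n = 3 each). Ceacam2, an adhesion molecule gene on chromosome 7, averaged 44.7, 45.1, 26.6 and 45.5 CPM in overexpression, knockdown, control_5NC and control_3NC. Its counts, those of Zfp33b (0 of 12 libraries with whole counts each) and those of A530064D06Rik (4 of 12) carried fractions, as arise when reads are shared between similar genes, and are uncertain. Over the 9 libraries outside control_5NC, r with Cst9 was 0.847 for Atpaf1, 0.833 for Dyrk2, 0.766 for Gpat3, 0.696 for Ceacam2, 0.645 for Mmadhc, 0.544 for Zfp33b, 0.197 for Gm40011 and 0.133 for A530064D06Rik. These 9 libraries are among the 12 on which the 8 genes were chosen, so high values are in part fixed by the choice. The points of these correlations are libraries of 4 groups and share the scaling of each library. Among the cystatins r with Cst9 over 12 libraries was 0.654 for Cst8, 0.635 for Cst13, 0.02 for Cstb, -0.12 for Cst12 and -0.18 for Cst3.

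Levels of different genes were compared as CPM per kilobase of annotated exon. Cst8 was highest at a mean of 178 over the 12 libraries (155 to 211), then Cst13 at 137 (111 to 176), Cst12 at 90.4 (74.0 to 106) and Cst3 at 89.9 (60.4 to 132). Cst9 followed at 55.2 (11.7 to 107), Cstb at 23.2, Cst11 at 3.35 and Cst6 at 0.0563 CPM per kilobase. Within libraries, Cst8 was above Cst13 in 12 of 12 and Cst13 above Cst12 in 12 of 12. Cst12 was above Cst3 in 6 of 12, so these neighbours in the order did not separate, and by the length of the longest transcript it was above in 1 of 12, with Cst3 then at 132. Cst3 was above Cst9 in 10 of 12 and Cst9 above Cstb in 8 of 12. Cstb was above Cst11 in 11 of 12 and Cst11 above Cst6 in 10 of 12, and the mean of Cst11 rests on knockdown 1.

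Few other cystatin superfamily genes passed the filter, and a listed symbol that is absent from the table says nothing about its level. Of 29 listed, 20 were in the table and 6 passed the filter, and 0 of the 6 were called in any comparison by edgeR, DESeq2 or limma-voom. In edgeR 0 or 1 had an unadjusted p below 0.05. It was 1 in knockdown against control_3NC, beside 8.69% of all tested genes, and in control_5NC against control_3NC, beside 12.9%. Cstl1, a cystatin-like gene of the same array, was the most abundant at a mean of 63.9 CPM, or 88.5 CPM per kilobase of exon, and was followed by 9230104L09Rik at 10 CPM and 8030411F24Rik at 8.34 CPM. Cstl1 averaged 70.5 ± 16 CPM in overexpression, 62.8 ± 2.29 CPM in knockdown, 66.0 ± 9.74 CPM in control_5NC and 56.2 ± 14.3 CPM in control_3NC (SD, n = 3 each). The median log2 fold change of the 6 was 0.32 in overexpression against control_5NC and -0.07 in knockdown against control_3NC, beside -0.01 and -0.03 over all genes. In the first, Cstl1 was at 0.09 ± 0.19, 8030411F24Rik at -0.30 ± 0.23 and 9230104L09Rik at -1.13 ± 1.11 (SE). The rest of the 6, each with a mean below 1 CPM, lay at 0.54 to 4.68 with SE of 0.63 to 3.27, so the median rested on weakly expressed genes.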

How the data were processed

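RNA from F1 mouse testes was measured in 12 libraries, 3 per group. Read counts per gene, per the file headers, were used as deposited and treated as estimated counts, since 88.2% of values were whole (within 0.001) and the rest carried fractions. The submitters' processing notes name mm10. Aligner, counter, gene models and strand setting: not given in the sources used here; reads of antisense genes cannot be told apart. The 18 columns of 9 other samples and the expression columns of unstated unit were not used here. Replicate numbers are from the titles.

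Counts were rounded and analysed with edgeR 4.0.16 in R 4.3.3: filterByExpr (minimum count 10; 16395 genes kept, 4393 left out with 0.0707% of counts), TMM scaling, and 1 robust quasi-likelihood fit of 4 group means (biological coefficient of variation 19.7%), with Benjamini-Hochberg adjustment over all tested genes at 0.05. Confidence intervals use the degrees of freedom of that fit. Alternatives used DESeq2 1.42.0, limma 3.58.1 (voom), other scaling, no filter, fewer libraries, a replicate block and a covariate for the 3 smallest libraries. The fit was tested on simulated data. Positions and exon lengths are from GENCODE M21 (GRCm38), and 20630 of 20788 gene identifiers matched a RefSeq table. Protein features were not analysed here.

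The members and the lists were chosen with earlier results of these data known. The lists were other cystatin superfamily genes, cathepsins and legumain, and markers of Sertoli, Leydig, peritubular myoid, spermatid, meiotic prophase, epididymis, leukocyte and type I interferon genes. Genes named were the 8 members, the 8 most like Cst9, called genes of the cystatin and cathepsin lists or else their 3 most abundant, and called neighbours within 1 Mb or else the 3 with the smallest joint p. Gpx5, Lcn8, Crisp1, Cnn1, Myh11, Acrv1, Clu, Spo11, Syce2, Aqp9 and Hsd3b1 were named after their values were seen.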

Additional observations from a re-analysis of the deposited data

Results flagged for a closer look

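The values of Cstb lay on opposite sides of their controls with the 2 constructs, and no difference in Cstb was called. All 3 overexpression libraries were above the mean of control_5NC and all 3 knockdown libraries were below the mean of control_3NC on the log2 scale, and the mean log2 effect of overexpression minus that of knockdown was 1.21. The difference was not tested, since the overexpression effect uses control_5NC, and the edgeR estimate of it was 1.43 ± 0.77 (SE) as a description. The value rested in large part on control_3NC 2, at 45.2 CPM of Cstb and 903 CPM of leukocyte genes: without it (an alternative chosen after seeing the data) the difference was 0.55, and 2 of the 3 knockdown libraries were below the mean of control_3NC.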

How the results depend on the processing

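Over the 73 alternative values computed for Cst9, it kept its direction in the comparisons with control_5NC and stayed short of the threshold in the others. The direction in the comparisons with control_5NC was set by the choice of Cst9, so keeping it is no test. Leaving out 1 library in turn gave log2 fold changes of 2.07 to 2.35 in overexpression against control_5NC, -2.41 to -2.0 in control_5NC against control_3NC, -0.61 to 0.23 in knockdown against control_3NC and -0.30 to 0.54 in overexpression against knockdown.

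Counts of called genes depended on the tool. DESeq2 called 23 genes in knockdown against control_3NC, 12 in overexpression against knockdown, 36 in the joint test, 742 (444 higher, 298 lower) in overexpression against control_5NC and 299 (133 higher, 166 lower) in control_5NC against control_3NC, where edgeR called 3, 0, 4, 78 (42 higher, 36 lower) and 40 (15 higher, 25 lower). Scaling by total counts alone gave 163 (80 higher, 83 lower) in overexpression against control_5NC and 68 (34 each way) in control_5NC against control_3NC. Limma-voom called 2 in the joint test and 13 in control_5NC against control_3NC. With the compared groups alone in the fit there were 0 in knockdown against control_3NC, 1 in the joint test and 9 in control_5NC against control_3NC, and a term for the 3 lowest totals left 6 in control_5NC against control_3NC. The causes were not tested.

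Counts of members called in the comparisons with control_5NC are no tests, since Cst9 was picked on them. In overexpression against control_5NC they were 2 by DESeq2, beside 4.53% of all tested genes, 0 with no filter and 0 with the totals term. In control_5NC against control_3NC they were 1 by DESeq2, beside 1.82% of all tested genes. They were also 1 there with RLE scaling, with total counts and with the compared groups alone. Gene counts for total counts and for the compared groups alone are given above. Leaving out 1 library in turn gave 0 to 0 members in overexpression against control_5NC and 0 to 1 in control_5NC against control_3NC, and gene counts of 1 to 9 in knockdown against control_3NC, 0 to 2 in overexpression against knockdown, 0 to 6 in the joint test, 5 to 217 in overexpression against control_5NC and 7 to 126 in control_5NC against control_3NC. Of the 8 genes most like Cst9, 2 were shared with the top 8 by Spearman's rho and 4 with the top 8 without control_3NC 2. Without that library, chosen as an alternative after seeing the data, the cathepsin median in knockdown against control_3NC was 0.01.

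Same-numbered libraries were not treated as pairs in the main fit. The r of their deviations ran from -0.12 to 0.31 (median 0.03) over 18 pairs, and 8 of 12 libraries correlated best with their own number. Whether libraries of the same number share a batch or an origin is not stated and was not tested. With the replicate number as a block, 1 gene was called in the joint test, beside 4 in the main fit. In overexpression against control_5NC it was 269 (167 higher, 102 lower), beside 78 in the main fit. Cst9 with the block was at 2.23 in overexpression against control_5NC and -2.23 in control_5NC against control_3NC. It was at -0.14 in knockdown against control_3NC and 0.13 in overexpression against knockdown. Depth limits Cst6 and Cst11, and the planned protein features were not run.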

Other observations

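The marker lists not used above are given as values. The summed level of 12 meiotic prophase genes was 1401 to 1734 CPM in overexpression, 1456 to 1508 CPM in knockdown, 1375 to 1855 CPM in control_5NC and 1439 to 1729 CPM in control_3NC. Of the 12, edgeR called 1 lower in overexpression against control_5NC (Spo11, the enzyme behind meiotic double-strand breaks) and 0 in the other comparisons. DESeq2 called Spo11 in 3 comparisons and Syce2, of the synaptonemal complex, in 1, and limma-voom called Spo11 in 1. The 6 peritubular myoid genes summed to 305 to 365 CPM in overexpression and 335 to 445 CPM in knockdown. Their sum was 277 to 340.1 CPM in control_5NC and 288 to 347 CPM in control_3NC, with 0 called by edgeR, DESeq2 or limma-voom. In edgeR 0 to 2 had an unadjusted p below 0.05, with 2 in knockdown against control_3NC, beside 8.69% of all tested genes. Of 14 type I interferon genes, 12 were in the table. They summed to 45.2 to 77.5 CPM in overexpression, 46.7 to 89.9 CPM in knockdown and 73.9 to 166.8 CPM in control_5NC. In control_3NC 1 to 3 the sums were 52.7, 555 and 45.8 CPM, so the high value was that of control_3NC 2 alone. The 3 tools called 0. In edgeR 0 to 8 had an unadjusted p below 0.05, with 8 in the joint test, beside 5.97% of all tested genes. Of the 10 epididymis genes and 14 leukocyte genes tested, and of 9 Leydig cell genes, edgeR and limma-voom called 0 in any comparison. At most 2, 7 and 1 had an unadjusted p below 0.05 in edgeR. These numbers were reached in knockdown against control_3NC, beside 8.69% of all tested genes. The leukocyte number was also 7 in control_5NC against control_3NC, beside 12.9%. DESeq2 called Aqp9 of the epididymis list in 2 comparisons and Hsd3b1 of the Leydig cell list in 3.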
